A study of Mus musculus with 6 samples.

Results

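The CC chemokines Ccl3, Ccl4, Ccl5, Ccl6, Ccl9, Ccl17 and Ccl22 were compared between LPS-stimulated macrophages from Xbp1 knockout (KO) and control (WT) mice. These 7 genes were taken by symbol from the 54660 gene rows of the deposited table, as a given set of CC chemokines that leaves out Ccl2, Ccl7 and Ccl12 and also some others described further on. All 7 were found and had enough counts to be tested. The cells were bone marrow-derived macrophages of C57BL/6 mice aged 6 to 8 weeks, grown in culture from bone marrow and exposed for 6 h to lipopolysaccharide (LPS), a Gram-negative cell wall component that signals through a Toll-like receptor. The 3 libraries called WT came from Xbp1FL/FL mice, which by that name carry floxed Xbp1 alleles, and the 3 called KO from Xbp1M-KO mice, a knockout of Xbp1 whose letter M the labels do not spell out. XBP1 regulates genes that relieve stress in the endoplasmic reticulum. The study asked, by its title, how XBP1 in macrophages acts on STING, a sensor pathway of cytosolic DNA, as the liver scars. All 6 libraries received LPS and no unstimulated library was used here, so a level described below is a level under LPS and not an induction. The driver of the knockout and the number of animals behind the libraries are not stated in the labels. The p-values therefore measure only how far these libraries differ from each other, and that spread may be technical.

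CC chemokines are small secreted proteins with adjacent cysteines near the amino terminus, and they guide leukocytes through G protein-coupled receptors. CCL3, CCL4 and CCL5 attract monocytes, T cells and NK cells, and CCL3 and CCL5 act on CCR1 among other receptors. CCL6 and CCL9 are rodent chemokines that act on CCR1. CCL17 and CCL22 share the receptor CCR4 and are best known as products of dendritic cells and alternatively activated macrophages that attract T helper and regulatory T cells. In macrophages, LPS activates NF-kappaB and interferon regulatory factors, and transcription of Ccl3, Ccl4 and Ccl5 is a textbook response to it.

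Library totals lay between 31976748 and 42448058 counts, and 3 counts corresponded to between 0.0682 and 0.0960 CPM, the count scaled to library size with TMM factors. Xbp1 itself averaged 89.0 ± 1.96 CPM across WT libraries and 65.8 ± 0.402 CPM across KO libraries (SD, n = 3 each), and it fell by 0.44 on the log2 scale (edgeR adjusted p = 2.38e-08). Reads on parts of the gene that are not deleted would still be counted, and the labels do not name the floxed exon. Defining macrophage genes were counted in every library, with Cd14 at 3665 to 4040 CPM, Adgre1 at 1204 to 1747 CPM and Csf1r at 701 to 1051 CPM. Of the 8 macrophage markers examined, 4 were called higher in KO, these 3 among them, and 3 lower. The lower ones were Lyz2 (log2 fold change -1.37), Fcgr1 (-0.38) and Cd68 (-0.24). Changes between genotypes were widespread. At an edgeR adjusted p under 0.05, 61.3% of the 13080 tested genes were called, 31.5% as higher in KO and 29.8% as lower. With library totals alone as the scaling, the median of all genes shifted by 0.11 on the log2 scale and 5120 genes were called higher and 2956 lower, against 4115 and 3904 with TMM.

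Of the 7 CC chemokines, 6 fell in KO. Ccl5 alone rose, by 0.11 on the log2 scale, and 58.1% of tested genes had a lower value. The background shares for these directions were 29.8% and 31.5% of all tested genes. The 6 that fell had log2 fold changes between -1.56 and -0.28, the median of all 7 was -0.74, and the median of all tested genes was -0.00. For those 6 genes every KO library lay below every WT library, which 32.3% of tested genes also showed, while Ccl5 overlapped and 33.6% of tested genes stood apart upwards. As an alternative, a smooth trend on GC content and gene length was removed from each library. With that trend removed, the same 6 genes fell and Ccl5 rose, beside 27.7% and 27.9% of all tested genes called in these directions, and the median of the 7 was -0.42. In bulk RNA, fewer cells of a type and less RNA per cell cannot be told apart.

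**Figure D1:**
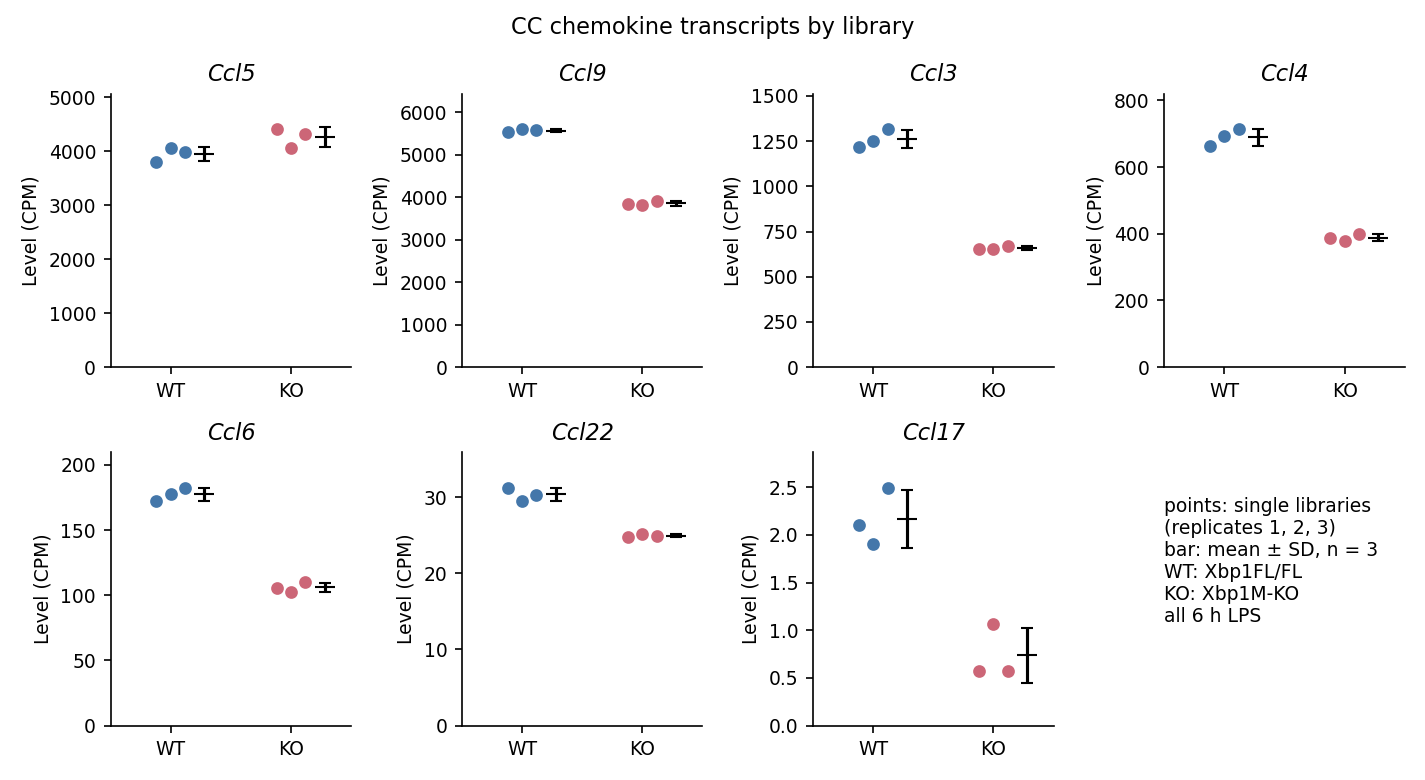
Level of each CC chemokine in every library, in TMM-scaled CPM on a linear axis that starts at 0. Points are single libraries, the bar beside them is the mean ± SD of 3, blue is WT and red is KO. The KO points lie below the WT points for 6 genes, while for Ccl5 the KO points lie between 4060 and 4410 CPM and overlap the WT points.

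Ccl5, which encodes a ligand of CCR1 and CCR3 also known as RANTES (ENSMUSG00000035042), lies on chromosome 11 from 83525778 to 83530518 on mm10, on the minus strand. WT replicates 1 to 3 had 3804, 4068 and 3989 CPM, whereas KO replicates 1 to 3 had 4410, 4060 and 4321. The groups overlapped, since KO replicate 2 lay below WT replicate 2. The mean rose from 3954 ± 136 CPM to 4264 ± 182 CPM (SD, n = 3 each), or 1.08-fold. By edgeR this was a log2 fold change of 0.11 with SE 0.0304 and adjusted p = 0.00526, and 58.1% of tested genes had a lower value. This rise depended on scaling for its size: it was 0.22 with library totals and 0.25 with the GC and length trend removed. With library totals the median of all genes also shifted by 0.11. Over all 13 alternatives the value of Ccl5 stayed positive with an adjusted p between 2.72e-08 and 0.0421. The authors' deposited table gives 0.11 for Ccl5 with an adjusted p of 0.00416.

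Ccl3 and Ccl4 encode the macrophage inflammatory proteins MIP-1alpha and MIP-1beta and lie next to each other, on opposite strands of chromosome 11. Ccl3 (ENSMUSG00000000982, chromosome 11, 83647844 to 83649355 on mm10) had 1215, 1251 and 1316 CPM in the WT libraries and 654, 655 and 669.9 CPM in the KO libraries. The KO libraries lay close together and far below WT, with a KO mean 0.523 times the WT mean. Ccl3 fell by 0.93 on the log2 scale (SE 0.0307, edgeR adjusted p = 4.57e-13), and 4.92% of tested genes had a lower value. With the GC and length trend removed its log2 fold change was -0.51.

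Ccl4 (ENSMUSG00000018930, chromosome 11, 83662584 to 83664683) begins 13228 bases beyond Ccl3. Its level was 662, 692 and 713 CPM in WT and 386, 379 and 399 CPM in KO, again without overlap. It fell by 0.83 on the log2 scale (SE 0.0334, edgeR adjusted p = 4.59e-12), and its value was -0.50 with the trend removed. Within a library, the log2 count ratio of Ccl3 to Ccl4 was 0.87 ± 0.0154 in WT and 0.77 ± 0.0221 in KO (SD, n = 3 each). The ratio thus differed by -0.11 on the log2 scale, and after removal of the trend the log2 fold changes of the pair differed by -0.01. This pair was chosen after its values were seen and was not tested.

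Ccl9 and Ccl6 encode CCR1 ligands of rodents and are also neighbours, separated by 9245 bases and transcribed from the same strand as Ccl5. Ccl9 (ENSMUSG00000019122, chromosome 11, 83572919 to 83578636) had 5525, 5602 and 5573 CPM in WT and 3835, 3816 and 3922 CPM in KO. The spread within each genotype was narrow, with a coefficient of variation of 0.696% in WT and 1.47% in KO, and the groups stood well apart. Ccl9 fell by 0.53 on the log2 scale (SE 0.0206, edgeR adjusted p = 3.13e-12), and 16.0% of tested genes had a lower value. Its value was -0.24 with the trend removed. A stretch of the Ccl9 transcript of up to 194 bases is at least 90% identical to stretches in transcripts of at least 335 other genes. The search kept a limited number of hits, so more may exist. Part of the Ccl9 count is thus uncertain where reads of repeats were counted. For the other 6 chemokines no such stretch of at least 100 bases was found, and none of the 7 has a copy that is at least 90% identical over at least 50% of its transcript.

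Ccl6 (ENSMUSG00000018927, chromosome 11, 83587882 to 83593087) had 173, 178 and 183 CPM in WT and 106, 103 and 109.9 CPM in KO. Every KO library was below every WT library. The fall was 0.74 on the log2 scale (SE 0.0374, edgeR adjusted p = 6.05e-11), or -0.42 as a log2 fold change with the trend removed. E230016K23Rik, annotated as a processed transcript, overlaps Ccl6 on the opposite strand. It had between 2 and 15 counts per library against 3519 to 6240 for Ccl6. The strand setting of the counting is unknown, so reads of the pair cannot be told apart.

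Ccl22 and Ccl17, the ligands of CCR4, lie close together on chromosome 8. Ccl22 (ENSMUSG00000031779, chromosome 8, 94745590 to 94751699) had 31.2, 29.5 and 30.3 CPM in WT and 24.7, 25.1 and 24.9 CPM in KO. The groups did not overlap. Ccl22 fell by 0.28 on the log2 scale (SE 0.0502, edgeR adjusted p = 1.11e-04), and 29.8% of tested genes had a lower value. Scaled by library totals its log2 fold change was -0.17, the smallest fall of the 6, as it also was with TMM. It was -0.27 with the trend removed, where Ccl9 fell less.

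Ccl17 (ENSMUSG00000031780, chromosome 8, 94810453 to 94812036) had 76, 63 and 78 counts in WT and 19, 39 and 25 in KO. In CPM these are 2.10, 1.90 and 2.49 against 0.571, 1.07 and 0.568, so KO replicate 2 stood nearer to WT than the other KO libraries. The means were 2.17 ± 0.303 and 0.736 ± 0.287 CPM (SD, n = 3 each). The coefficient of variation reached 39.0% in KO, the widest spread of the 7 genes. Of the 7 genes Ccl17 changed most (log2 fold change -1.56, SE 0.255, edgeR adjusted p = 5.24e-05). A lower value was found in 0.642% of tested genes. Leaving out KO replicate 2 gave -1.91, and the range over all libraries left out in turn was -1.91 to -1.38.

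**Figure D2:**
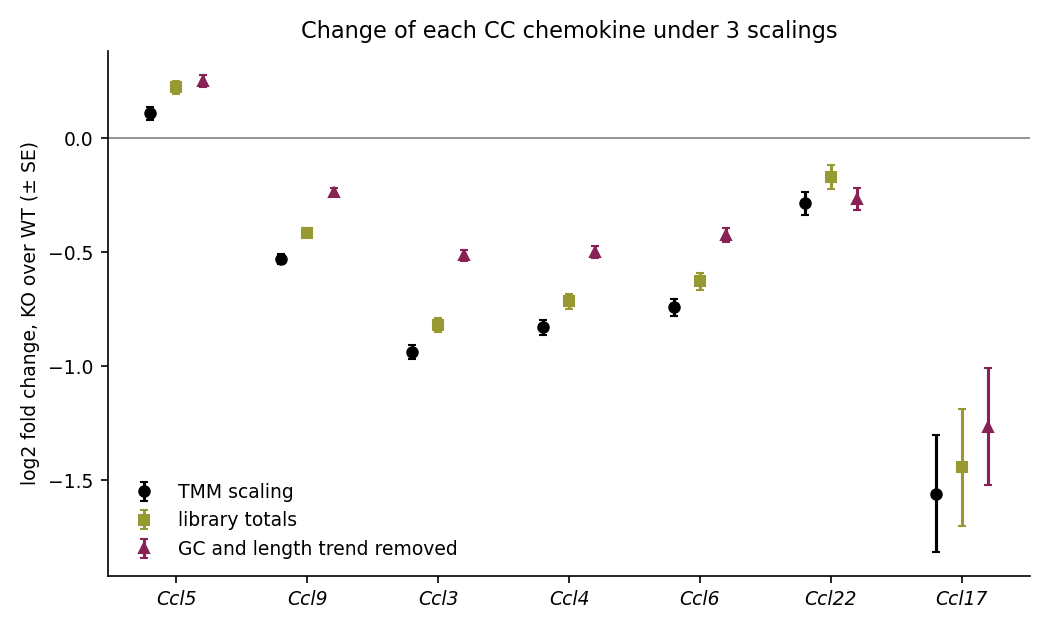
Log2 fold change of each CC chemokine, KO over WT, with its SE, under 3 scalings of the same edgeR test. All 3 place Ccl5 above 0 and the other 6 below 0, and removal of the GC and length trend moves Ccl3 from -0.93 to -0.51 and Ccl9 from -0.53 to -0.24.

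Chemokine levels can be compared between genes only per length, for which the authors' FPKM values were used, read fragments scaled to gene length and library size. In FPKM the order was the same in both genotypes, Ccl5 first, then Ccl9, Ccl3, Ccl4, Ccl6, Ccl22 and Ccl17. In WT the mean levels were 4086 ± 146, 1814 ± 16.2, 1633 ± 63.4, 1036 ± 37.9, 98.1 ± 2.67, 12.9 ± 0.347 and 4.18 ± 0.572 FPKM (SD, n = 3 each). In KO they were 4414 ± 189, 1259 ± 19.6, 856 ± 12.4, 584 ± 16.2, 58.8 ± 2.03, 10.6 ± 0.0944 and 1.42 ± 0.555 FPKM. No neighbours in this order overlapped in either genotype, and the closest were Ccl9 and Ccl3 in WT, where the lowest Ccl9 library had 1799 FPKM and the highest Ccl3 library 1699 FPKM.

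The make-up of the CC chemokine message shifted towards Ccl5. Of the summed FPKM of the 7 genes, Ccl5 held 46.7%, 47.7% and 46.7% in WT replicates 1 to 3 and 62.4%, 60.6% and 61.3% in KO replicates 1 to 3. The groups lay well apart, at 47.0% ± 0.608 against 61.4% ± 0.913 (SD, n = 3 each). Ccl3 went from 18.8% ± 0.451 to 11.9% ± 0.324, Ccl4 from 11.9% ± 0.181 to 8.14% ± 0.165 and Ccl9 from 20.9% ± 0.444 to 17.5% ± 0.424 of the same sum. Shares within this sum do not depend on the scaling between libraries, but the GC and length trend was not removed from them. The Ccl9 part also carries the uncertainty from repeats described above. Counts of all 7 genes together made up 1.10% to 1.14% of a WT library and 0.944% to 0.979% of a KO library, which is a share of library totals.

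**Figure D3:**
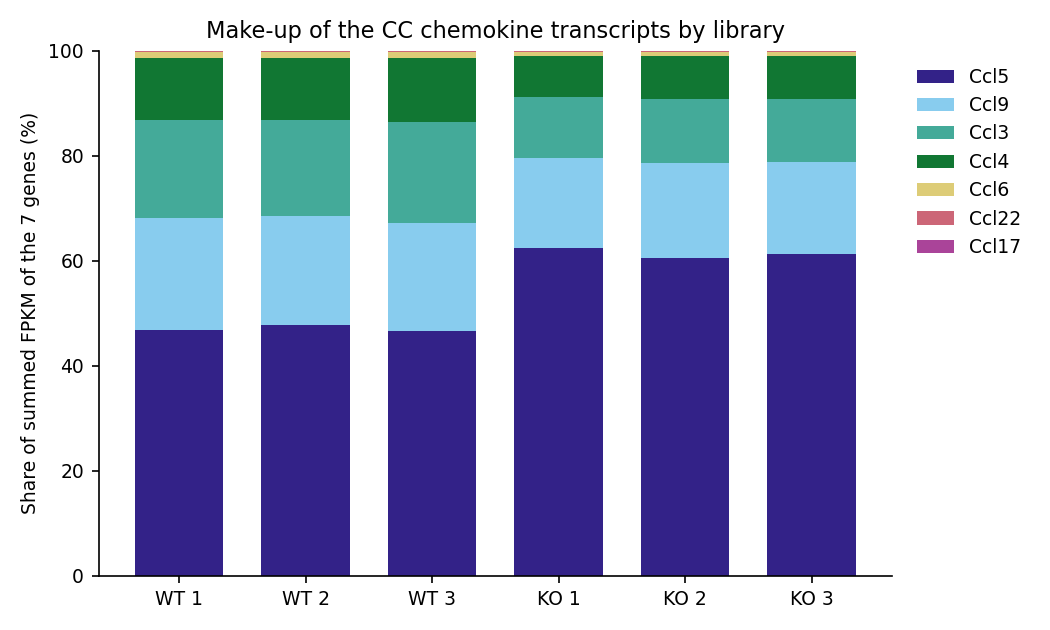
Share of each gene in the summed FPKM of the 7 CC chemokines, in percent, 1 stacked bar per library. Ccl5 takes 46.7% to 47.7% of each WT bar and 60.6% to 62.4% of each KO bar.

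Whether Ccl5 moved differently from the others was tested with count ratios inside each library, which do not depend on scaling between libraries either. The log2 ratio of Ccl5 to Ccl3 was 1.65, 1.70 and 1.600 in WT replicates 1 to 3 and 2.75, 2.63 and 2.69 in KO replicates 1 to 3. All KO libraries thus lay above all WT libraries, by 1.04 on the log2 scale or 2.06-fold. The difference was 0.94 against Ccl4, 0.85 against Ccl6, 0.64 against Ccl9, 1.71 against Ccl17 and 0.39 against Ccl22, and for each of these ratios the groups did not overlap. Taken singly, 32.3% of tested genes also stood apart downwards in KO and 33.6% upwards. How often the ratio of Ccl5 to any other tested gene separates the groups was not determined. All 6 ratios gave p = 0.10 in a two-sided exact permutation test (Benjamini-Hochberg adjusted p = 0.10 over the 6 ratios). This is the smallest p that 3 against 3 libraries allow. The 6 ratios share Ccl5 and largely restate the levels given above, so they are not 6 separate results. With the GC and length trend removed, the log2 fold change of Ccl5 exceeded that of Ccl3 by 0.76, of Ccl9 by 0.49 and of Ccl22 by 0.52.

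**Figure D4:**
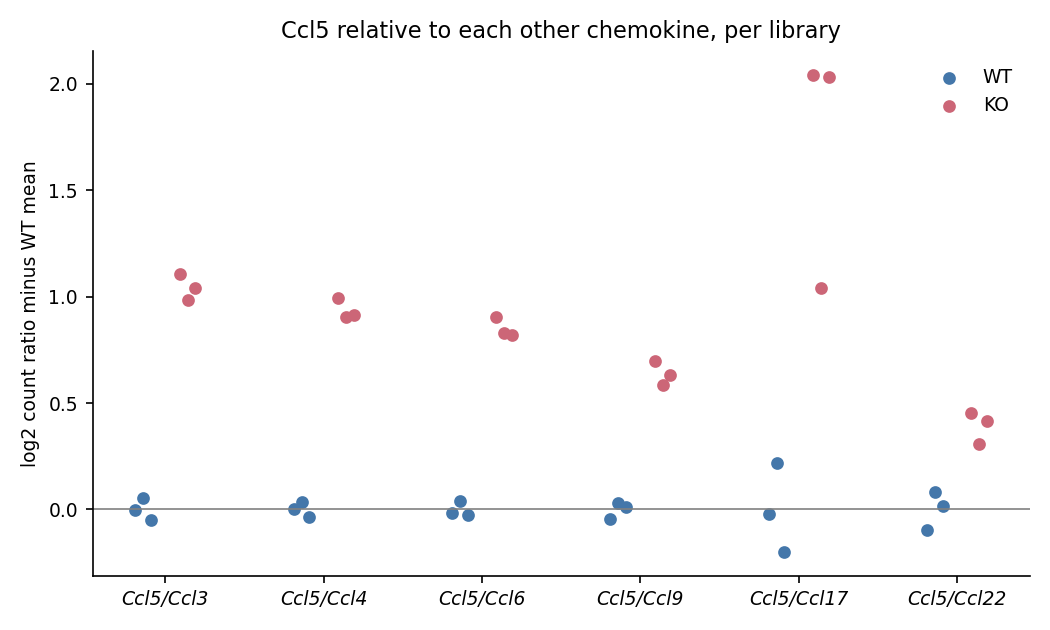
Log2 ratio of Ccl5 counts to those of each other CC chemokine in every library, shown as the difference from the WT mean of that ratio. Blue points are WT libraries and red points KO libraries. Every red point lies above the blue points of its pair, with differences of group means from 0.39 for Ccl22 to 1.71 for Ccl17.

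Promoter sequences from RefSeq (GRCm38.p6, the assembly of mm10) were matched for 5 of the 7 genes, Ccl3, Ccl6, Ccl9, Ccl17 and Ccl22. Ccl4 and Ccl5 were not matched. The bases before the annotated start are shown for the 4 that hold GGAAGT, or its reverse complement ACTTCC, in the 250 bases before it. GGAAGT is a core that the macrophage factor PU.1 and other ETS factors can bind. Sequences run 5′ to 3′ along the gene's strand, capitals mark the core, and Ccl22 is shown only as far as its start in the deposited table.
Ccl3, chr11:83649379-83649628, minus strand: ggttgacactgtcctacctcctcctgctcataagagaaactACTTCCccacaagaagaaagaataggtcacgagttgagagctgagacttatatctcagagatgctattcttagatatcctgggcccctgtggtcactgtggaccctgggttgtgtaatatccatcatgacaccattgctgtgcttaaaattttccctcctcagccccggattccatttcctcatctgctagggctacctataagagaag
Ccl6, chr11:83593088-83593337, minus strand: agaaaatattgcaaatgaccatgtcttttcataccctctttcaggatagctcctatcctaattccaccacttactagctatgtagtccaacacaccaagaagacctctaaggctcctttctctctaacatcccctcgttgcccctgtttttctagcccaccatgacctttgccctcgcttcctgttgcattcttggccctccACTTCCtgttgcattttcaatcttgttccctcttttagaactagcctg
Ccl9, chr11:83578637-83578886, minus strand: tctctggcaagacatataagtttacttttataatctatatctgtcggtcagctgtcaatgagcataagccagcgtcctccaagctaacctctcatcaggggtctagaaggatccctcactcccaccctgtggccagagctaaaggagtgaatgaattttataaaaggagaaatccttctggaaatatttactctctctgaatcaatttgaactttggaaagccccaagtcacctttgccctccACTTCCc
Ccl22, chr8:94745434-94745589, plus strand: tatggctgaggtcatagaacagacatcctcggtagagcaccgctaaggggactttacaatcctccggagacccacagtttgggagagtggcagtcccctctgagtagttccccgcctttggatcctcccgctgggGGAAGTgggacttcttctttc

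The core was present in 4 of 5 promoters, against 19.7% of the 32851 promoters of the same length, and it was singled out after these sequences were seen. The 4 matches are not independent, since those of Ccl6 and Ccl9 lie in a similar stretch of the 2 promoters, described below. Counting the first transcribed base in RefSeq as 0, it begins at -209 in Ccl3, -48 in Ccl6, -7 in Ccl9 and -115 in Ccl22. The RefSeq start of Ccl22 lies 94 bases downstream of its start in the deposited table, from which the core begins at -21. That of Ccl3 lies 23 bases upstream of the deposited start, and those of Ccl6 and Ccl9 coincide with it. Of the 6 motifs reported, searched on both strands, some chosen after other motifs had been looked at, the interferon-stimulated response element (GAAA repeated after any 2 bases; 2.98% of all promoters) and ACGTG (the type of core that XBP1 binds; 16.6%) matched in none of the 5 windows. The kappaB consensus (3.90% of all promoters), TGANTCA (AP-1; 6.75%) and TATAAA (12.4%) matched in Ccl9 only, the first at -35 and the second at -53, with no overlap between different motifs. The window of Ccl17 held no match to any of the 6. A stretch of the Ccl6 and Ccl9 promoters aligned over 74 columns with 79.7% identity, from -59 to 14 in Ccl6 and from -18 to 48 in Ccl9. It holds the GGAAGT core of both genes at the same place in the alignment. Among the other pairs of these 5 promoters the longest alignment had 20 columns. A match describes letters in these windows and does not show binding.

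Of the genes next to the chemokines in the genome, 3 could be tested. Heatr9, which lies 3602 bases from Ccl5, averaged 0.987 ± 0.347 CPM across WT and 1.10 ± 0.160 CPM across KO and was not called (0.16 on the log2 scale, edgeR adjusted p = 0.635). Cx3cl1, the gene of the chemokine fractalkine between Ccl22 and Ccl17, fell by 0.85 on the log2 scale, from 6.70 ± 0.459 to 3.71 ± 0.324 CPM (edgeR adjusted p = 5.71e-06). Its log2 fold change was -1.09 with the trend removed. Ciapin1, on the other side of Ccl17, had a log2 fold change of -0.03 and was not called (edgeR adjusted p = 0.590). With the trend removed it was called lower, at -0.34 (edgeR adjusted p = 3.87e-06).

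The remaining CC chemokines were lower in KO wherever they were called. Of 14 listed, 7 passed the filter, of which 6 fell and none rose, beside 29.8% and 31.5% of all tested genes. Their median log2 fold change was -1.23, beside -0.00 for all tested genes, and -0.78 with the trend removed. Without trend removal the largest falls were those of Ccl7 (-2.24), Ccl2 (-1.78), Ccl20 (-1.38) and Ccl12 (-1.23). With the trend removed Ccl12 was at -0.56, above Ccl27a at -1.06 (-0.96 without trend removal), a skin chemokine gene named after its values were seen. Ccl20, a CCR6 ligand, rests on few reads, 22 to 24 counts in WT libraries and 1 to 19 in KO libraries. Its call was lost without KO replicate 1 (-0.91) and with the trend removed (-0.78). With the trend removed 4 of the 7 fell, beside 27.7% of all tested genes.

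Receptors of the CC chemokines moved in both directions. Of the 13 receptors and decoy receptors reported, 7 passed the filter, of which 3 rose and 3 fell, with a median log2 fold change of -0.22. With the trend removed, 3 rose and 2 fell. All tested genes were called higher in 31.5% and lower in 29.8% of cases, or 27.9% and 27.7% with the trend removed. Ccr1, the receptor of CCL3, CCL5, CCL6 and CCL9, averaged 30.3 ± 2.19 CPM in WT but 17.1 ± 0.433 CPM in KO. It fell by 0.82 on the log2 scale (edgeR adjusted p = 6.41e-09), and its value was -0.40 with the trend removed.

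Ccrl2, which binds the chemoattractant chemerin without signalling, fell by 0.47 on the log2 scale, from 325 ± 3.87 to 234 ± 3.51 CPM. Ccr3, an eosinophil receptor that CCL5 also engages, fell by 0.60, but its value of -0.22 with the trend removed was not called. Ccr7, the lymph node homing receptor, rose by 0.38 with overlapping groups, a call lost with DESeq2 and without WT replicate 1, WT replicate 3, KO replicate 2 or KO replicate 3, where the value lay between 0.29 and 0.38. Ccr2, the receptor of CCL2, rose by 0.80 from 0.780 ± 0.198 CPM. It had 19 to 35 counts per WT library and 39 to 62 per KO library, and without WT replicate 2 (0.62) or KO replicate 2 (0.73) the call was lost. Ccr10 rose by 1.55 from 2 to 10 counts per WT library to 16 to 24 per KO library, and Ccr9 was not called (-0.22, and 0.10 without WT replicate 3). Ccr4, the receptor of CCL17 and CCL22, had 0 to 2 counts per library and was not tested, as were Ccr6, Ccr8, Ackr1, Ackr2 and Ackr4.

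Signalling genes downstream of the receptors rose more often than they fell. The list of 25 symbols holds 2 older names of genes already on it, and all 23 genes passed the filter. Of these, 15 rose and 5 fell, with a median log2 fold change of 0.24, beside -0.00 for all tested genes. Once the trend was removed, 12 rose and 6 fell, with a median of 0.09. Among all tested genes 31.5% rose and 29.8% fell, or 27.9% and 27.7% with the trend removed. Arrb1, which encodes the desensitizing adaptor beta-arrestin 1, rose from 11.01 ± 0.854 to 46.0 ± 4.13 CPM, a log2 fold change of 2.06, and Prex1, an exchange factor for Rac, rose by 0.94, or 0.53 with the trend removed. Rgs16 and Rgs1, which shorten G protein signals, fell by 1.07 and 0.83 on the log2 scale, Rgs1 from 163 ± 5.06 to 92.0 ± 1.82 CPM.

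Transcription factors known to act on CC chemokine genes also rose more often than they fell. Of 24 listed, 23 were tested, of which 13 rose and 6 fell, with a median log2 fold change of 0.19. With the trend removed 11 rose and 8 fell, with a median of 0.12. Xbp1, the gene targeted by the knockout, is on this list and among those that fell. The shares over all tested genes were 31.5% higher and 29.8% lower, or 27.9% and 27.7% with the trend removed. The AP-1 genes Jun (0.77), Fos (0.76) and Fosl2 (0.56, and 0.19 with the trend removed) and Stat6, the factor of the interleukin-4 response (0.67, and 0.43 with the trend removed), had the largest changes without trend removal. With the trend removed, Irf8, a factor of the monocyte lineage (-0.66, and -0.37 without), and Xbp1 (-0.58) changed more than Stat6 and Fosl2, and Irf8 was named after its values were seen. Stat6 went from 102 ± 0.996 to 162 ± 5.40 CPM. Irf4 had at most 0.137 CPM and was not tested.

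Proteases and RNA decay factors known to act on CC chemokines or their mRNAs split. Of 13 tested, 5 rose and 3 fell, beside 31.5% and 29.8% of all tested genes. With the trend removed 6 rose and 5 fell, beside 27.9% and 27.7%. Elane, the neutrophil elastase gene, which is also on the neutrophil marker list, had 1 to 4 counts per WT library and 12 to 27 per KO library (log2 fold change 2.57). Mmp12, the macrophage metalloelastase, fell by 1.34. Zfp36l2, of the family of decay factors that bind AU-rich elements, rose by 1.27 from 20.3 ± 2.12 to 49.0 ± 2.70 CPM. Of the same family, and named after their values were seen, Zfp36 fell by 0.53, from 166 ± 4.72 to 115 ± 4.47 CPM, and Zfp36l1 rose by 0.69. The carboxypeptidase gene Cpd rose by 0.72.

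**Figure D5:**
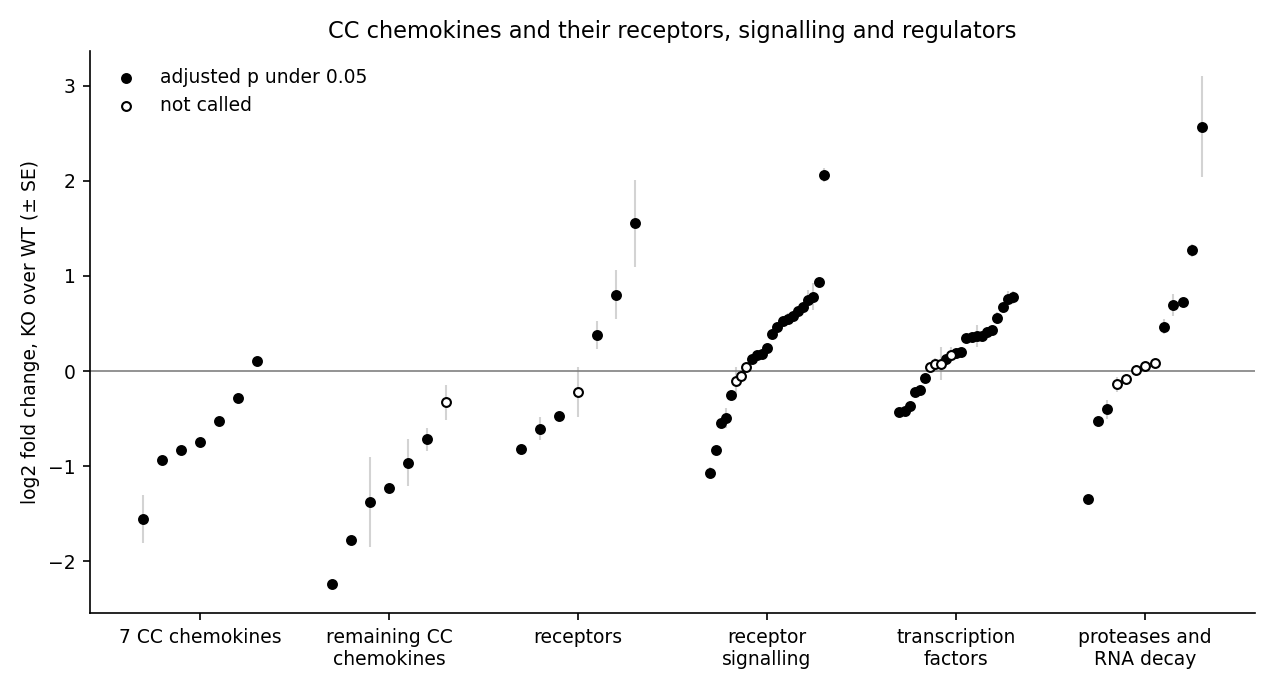
Log2 fold change, KO over WT, with its SE, of every tested gene in the 7 CC chemokines and in 5 lists around them, sorted within each list. Filled points passed an edgeR adjusted p of 0.05. The 7 chemokines and the remaining CC chemokines lie mostly below 0, while receptor signalling genes have 15 called points above 0 and 5 below.

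The genes whose pattern over the 6 libraries was most like each chemokine were found among 6448 tested genes with a mean of at least 10 CPM, by the root mean square difference of centred log2 CPM. The nearest 3 were Pf4, Casp4 and Snx2 for Ccl3, Rgs1, 5430427O19Rik and Ctsl for Ccl4, and Faap20, Slc20a1 and Fam234a for Ccl5. Pf4, itself a platelet and macrophage chemokine gene of the CXC class, differed from Ccl3 by 0.0169 and had a log2 fold change of -0.93. For Ccl6 they were Nampt, Rpl36a and AW112010, for Ccl9 Syngr1, Atp6v1g1 and Rps3a1, and for Ccl22 Nelfe, Alg5 and Zfand2b. For these 6 chemokines the differences were at most 0.0268 on the log2 scale. Ccl17 had no gene as close, and its nearest, Tra2a, differed by 0.27. With 6 libraries in 2 groups this measure mostly matches genes by the size of their change.

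Markers of other cells that make these chemokines were examined as a check of the cell type. The 8 dendritic cell markers summed to 9.79 to 11.04 CPM in WT and 10.4 to 11.2 CPM in KO, with 4 of 8 passing the filter, 2 higher and 1 lower. Mean levels went from 2.94 to 4.30 CPM for Itgax, from 3.05 to 3.96 CPM for Ccr7 and from 3.68 to 1.90 CPM for Xcr1. Batf3 was not called, and Flt3, Cd209a and Clec9a were at or below 0.0830 CPM in every library. Of 9 T and NK cell markers none passed the filter, Ncr1 was at 0 in all libraries, and their sum was 0.181 to 0.288 CPM in WT and 0.2500 to 0.301 CPM in KO. The 6 mast cell and basophil markers summed to 1.27 to 1.80 CPM in WT and 0.773 to 1.08 CPM in KO, with Fcer1a, Ms4a2 and Mcpt4 at 0 and Mcpt8 lower. Neutrophil markers were higher in KO, at a sum of 205 to 218 CPM against 153 to 168 CPM, with 4 of 8 tested and all 4 higher. Most of this sum was S100a8, at 80.0 ± 4.92 CPM in WT and 93.6 ± 1.69 CPM in KO, and S100a9, at 75.2 ± 3.70 and 105 ± 5.33 CPM. Ly6g, Mpo, Cxcr2 and Retnlg were at or below 0.192 CPM in every library. Stromal markers were lower, at 240 to 248 CPM against 466 to 480 CPM, with 5 of 7 lower and 1 higher. Most of that drop was Acta2, at 347 ± 6.59 CPM in WT and 151 ± 0.528 CPM in KO, while the 3 collagen genes fell by 0.44 to 0.53 on the log2 scale (-0.88 to -0.79 with the trend removed) and Pdgfrb rose by 0.23 (-0.09 and not called with the trend removed). The 8 macrophage markers summed to 20294 to 20968 CPM in KO and 37626 to 39106 CPM in WT, most of it Lyz2, and 4 were higher and 3 lower. The 4 B cell markers summed to at most 0.301 CPM. Beside these marker counts, 31.5% of all tested genes were called higher and 29.8% lower. The part of the dendritic cell, neutrophil, stromal and mast cell markers in the chemokine results was not tested.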

How the data were processed

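RNA sequencing libraries were built from total RNA for 3 WT and 3 KO macrophage samples using, per the labels, a NEBNext Ultra RNA kit. The authors deposited raw whole-number counts for each gene and, per the file headers, FPKM values, which were used only to compare levels between genes. The authors deposited as signal their mean normalized counts per genotype, which were not used, and also a log2 fold change with its p-value and adjusted p-value, whose tool is not named in the headers. The submitters' processing notes name Bowtie 0.12.2, mm8 and mm10 without saying what each was used for. For the read counter, strand setting and RNA selection, nothing is stated in the labels. The 7 genes had the same coordinates in GENCODE vM21 (mm10), as had 98.3% of 54495 identifiers compared. The table has 128 rows with another kind of identifier, holding 0.0427% to 0.0502% of a library's counts, which were kept.

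Counts were tested with edgeR 4.0.16 (R 4.3.3), quasi-likelihood, TMM scaling, default expression filter, genotype as the term and Benjamini-Hochberg adjustment over 13080 genes, and the script was tested on simulated data. Each SE was derived from the size of the log2 fold change and the F statistic. Library depth limits precision for genes near 3 counts. Alternatives were DESeq2 size factors, library totals, no filter, DESeq2 1.42.0, a replicate block, removal per library of a smooth trend on GC content and length (mgcv 1.9.3; 109 tested genes without GC content got the median), both together, and each library left out. Ratios used a pseudocount of 0.5 counts. The members and lists were chosen with earlier results of these data known. Named genes are the 7, Xbp1, tested receptors, up to 4 called genes with the largest change per list, the 3 most similar genes per chemokine, and genome neighbours. A receptor on the list is not reported here and is left out of its counts. Markers are named for the check of cell types.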

Additional observations from a re-analysis of the deposited data

How the results depend on the processing

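The 7 chemokines kept their direction and their call under all 13 alternatives, with 6 called lower and 1 higher in each, also with the replicate block (median log2 fold change -0.74). The labels do not say whether replicate numbers pair the libraries, and no clear pairing was seen. Correlations of same-numbered deviations lay between -0.0368 and 0.0362. WT replicates 2 and 3 and KO replicate 3 correlated best with their own number, and the other libraries did not. With 3 libraries per genotype this cannot exclude a paired design. The block gave 4116 genes higher and 3897 lower. The median of the 7 was -0.63 with library totals and -0.42 with the GC and length trend removed, with or without the block. Of the receptors 1 to 3 were called higher when each library was left out in turn, the lowest without KO replicate 2, and of the proteases and RNA decay factors 5 were called lower with the trend removed, with or without the block. Ccr9 ranged from -0.48 to 0.10 over libraries left out. Of 299 alternative values for the other named genes, 12 lost the call and 1 changed sign. The cause was not tested. Depth limits Ccl17, Ccl20, Ccr2, Ccr9, Ccr10, Heatr9 and Elane, with few counts per library.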
